A study of Mus musculus with 15 samples.

Results

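The nuclear-encoded subunits of the oxidative phosphorylation machinery were followed through 15 RNA libraries of CD8+ T cells from mouse tumours. Members were all genes whose symbol begins with Nduf followed by a, b, c, s or v (complex I), equals Sdha, Sdhb, Sdhc or Sdhd (complex II), or begins with Uqcr (complex III), Cox4 to Cox8 (complex IV) or Atp5 (complex V). Pseudogenes were not counted, nor was any symbol that a file lists repeatedly. This gave 90 genes of 21788 in all, of which 45 carry complex I names, 4 complex II, 8 complex III, 16 complex IV and 17 complex V. Of the 90, 81 were counted as subunits. The other 9 (Ndufaf1 to Ndufaf7, Atp5s and Atp5sl) are assembly factors or related proteins that were matched by name only and are given apart. Ndufa4 was counted with complex I by its name, although the protein is known as a subunit of complex IV. Cox7a2l was counted as a complex IV subunit by its name only.

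Oxidative phosphorylation makes most of the ATP of a resting cell in the inner mitochondrial membrane. Complex I takes electrons from NADH and complex II, which is also the succinate dehydrogenase of the citric acid cycle, takes them from succinate. Complex III passes them to cytochrome c and complex IV to oxygen, and complex V uses the resulting proton gradient to make ATP. All complexes but complex II combine subunits made from nuclear genes with subunits made from mitochondrial DNA. T cells raise this machinery on activation and when they form memory, and mitochondrial fitness is a recognised topic in studies of exhausted T cells in tumours.

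Female mice of 6-8 weeks carried tumours grown from E.G7 cells, a T cell lymphoma line that makes ovalbumin, placed under the skin, and T cells were sorted on day 21, at 9-11 weeks. The labels give C57BL/6 for the strain of the first libraries, and in others the number in the strain name and in the genotype name counts upward, so each group was taken from the title. The bulk design compared ovalbumin-specific CD8+ T cells of wild-type mice and of mice labelled B7S1 KO, named for the B7-family ligand B7S1 encoded by Vtcn1, with 6 mice per group and 1 library each. The sorted design parted PD-1+ CD8+ T cells into B7S1R_SP (B7S1 receptor positive, Tim-3 negative), TIM-3_SP (Tim-3 positive, receptor negative) and DN (negative for both). Each population had 2 wild-type libraries, here called WT 1 and WT 2, and 1 library labelled KO. The antibody design had 1 library each of Control, anti_B7S1, anti_PD1 and combo, labelled wild type, without a dose or schedule and with "none" as the treatment. The labels do not say that replicates came from separate animals, so the p-values measure only the spread between these libraries.

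The deposited files formed 4 tables by the genes they list, and values were compared only within a table. The bulk pair is in RPKM and the other libraries are in FPKM, both read numbers scaled per kilobase of transcript and to the mapped total. Levels of genes of unlike transcript length can be set side by side only with care. The ratio of short to long subunits differed between libraries, as given below. Total reads are not given in the sources used here. Of the 90 members, 88 were listed in the bulk table, 88 in that of the WT 1 libraries, 89 in that of the WT 2 and KO libraries and 85 in the antibody table. None of the 13 genes of mitochondrial DNA that encode subunits was listed in any table, so only the nuclear part of each complex is described.

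The targeted gene and the cell type markers were read first. Vtcn1 stood at 0.0687 RPKM in the wild-type and 9.46 RPKM in the KO bulk library, and at 0 FPKM in the 3 WT 2 libraries against 0.16 to 2.5 FPKM in those labelled KO. The labels do not say which part of the gene was deleted, and the libraries are called "labelled KO" for that reason. Havcr2, which encodes Tim-3, lay between 27.4 and 157 FPKM in TIM-3_SP libraries and at 9.34 FPKM or lower in the other sorted libraries. Pdcd1, which encodes the PD-1 of the sort gate, stood at 3.17, 17.7 and 12.1 FPKM in the KO libraries of B7S1R_SP, TIM-3_SP and DN, against 28.5, 83.8 and 137 FPKM in WT 2. The summed level of 9 listed T cell and CD8 markers was lowest in B7S1R_SP of WT 2 (2244 FPKM), B7S1R_SP KO (2037 FPKM) and DN KO (3218 FPKM), and lay between 4601 and 8625 FPKM in the other sorted libraries. The erythroid list of globin genes and Alas2 summed to 10958, 88908 and 62944 FPKM in B7S1R_SP, TIM-3_SP and DN of WT 2. It summed to 4.17, 10.7 and 135 FPKM in the corresponding KO libraries. In WT 1, where only 2 genes of the list were listed, it summed to 0, 0.31 and 3.14 FPKM. In bulk RNA, fewer cells of a type and less RNA per cell cannot be told apart.

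Promoters are shown for 5 members chosen as examples. Cox8a was the most abundant subunit in every sorted library, and Cox6a1 is the widely expressed partner of the muscle isoform Cox6a2. Atp5b encodes the catalytic beta subunit of complex V, and Cox6b2 and Cox7a1 are tissue-restricted complex IV isoforms. Each run holds 250 bases before and 50 bases after the RefSeq transcription start, in GRCm38.p6, read 5′ to 3′ on the gene's strand. Capitals mark matches to the ETS letters CCGGAAG (seen as their reverse complement in Cox8a and Cox6a1) and to the NRF1 letters, GCGCA, any base, then GCGC. The runs lie at chr19:7217567-7217866 on the minus strand for Cox8a, chr5:115348909-115349208 on the minus strand for Cox6a1, chr10:128083057-128083356 on the plus strand for Atp5b, chr7:4753045-4753344 on the minus strand for Cox6b2 and chr7:30183921-30184220 on the plus strand for Cox7a1.
Cox8a: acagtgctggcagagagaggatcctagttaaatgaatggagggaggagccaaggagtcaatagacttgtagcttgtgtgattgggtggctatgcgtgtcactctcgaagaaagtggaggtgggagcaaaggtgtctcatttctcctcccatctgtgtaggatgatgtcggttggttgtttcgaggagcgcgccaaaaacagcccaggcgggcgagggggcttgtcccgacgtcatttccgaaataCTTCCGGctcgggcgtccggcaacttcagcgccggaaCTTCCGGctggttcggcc
Cox6a1: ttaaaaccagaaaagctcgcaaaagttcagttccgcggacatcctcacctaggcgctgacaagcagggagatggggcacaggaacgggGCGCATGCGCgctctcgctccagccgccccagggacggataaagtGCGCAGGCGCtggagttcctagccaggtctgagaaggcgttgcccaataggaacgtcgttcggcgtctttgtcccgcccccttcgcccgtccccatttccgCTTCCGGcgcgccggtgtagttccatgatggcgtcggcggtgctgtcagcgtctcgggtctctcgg
Atp5b: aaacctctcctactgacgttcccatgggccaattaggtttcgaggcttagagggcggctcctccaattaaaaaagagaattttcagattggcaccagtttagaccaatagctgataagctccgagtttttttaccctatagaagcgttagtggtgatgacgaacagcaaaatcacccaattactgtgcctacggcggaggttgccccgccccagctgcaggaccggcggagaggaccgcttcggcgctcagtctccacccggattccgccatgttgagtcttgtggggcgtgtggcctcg
Cox6b2: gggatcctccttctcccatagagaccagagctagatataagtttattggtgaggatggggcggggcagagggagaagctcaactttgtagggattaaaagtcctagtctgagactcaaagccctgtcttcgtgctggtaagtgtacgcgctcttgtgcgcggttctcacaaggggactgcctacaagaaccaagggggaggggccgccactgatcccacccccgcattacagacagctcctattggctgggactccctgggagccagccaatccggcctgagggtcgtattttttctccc
Cox7a1: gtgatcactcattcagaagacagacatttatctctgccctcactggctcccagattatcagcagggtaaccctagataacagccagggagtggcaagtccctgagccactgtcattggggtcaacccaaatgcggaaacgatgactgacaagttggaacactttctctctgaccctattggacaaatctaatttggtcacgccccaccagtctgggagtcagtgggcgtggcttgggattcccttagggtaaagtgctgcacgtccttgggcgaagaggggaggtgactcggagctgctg

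Cox8a held 2 ETS matches, at -5 and 33 relative to the start, and Cox6a1 held 2 NRF1 matches, at -162 and -117, and 1 ETS match at -16. Atp5b, Cox6b2 and Cox7a1 held none of the motifs searched. RefSeq promoters were matched for 67 of the 81 subunits and searched on both strands. For each gene only the first listed promoter was used. The NRF1 letters, a motif of a known regulator of respiratory genes, were found in 16 of the 67 (23.9%). They were found in 4.78% of all 27025 genes with a promoter of this length. The ETS letters were found in 15 (22.4%) against 9.12%, the YY1 letters AAGATGGCG in 6 (8.96%) against 1.495%, and the ERR letters TCAAGGTCA in 2 (2.99%) against 0.407%. An ETS and a YY1 match can share the letters AAG. A match describes the sequence only, and binding was not measured.

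The levels of the subunits were compared between complexes within each library. The 90 members together took between 3.33% and 8.45% of the summed FPKM of a sorted library, 5.71% and 5.57% of the summed RPKM of the wild-type and KO bulk libraries, and 2.59% to 2.75% in the antibody libraries. Over the 76 subunits listed in all 4 tables, complex II had the lowest median of the 5 complexes in every sorted library. In WT 1, the medians of complex IV were 481, 448 and 587 FPKM in B7S1R_SP, TIM-3_SP and DN, against 158, 152 and 143 FPKM for complex II. In the KO libraries complex IV reached 1785, 1549 and 1709.7 FPKM in the same order, against 191, 157 and 206 FPKM for complex II. Transcripts of complex II were also longer, with a median of 1186.5 bases against 615.5 in complex IV, and the part of length was not tested.

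**Figure D1:**
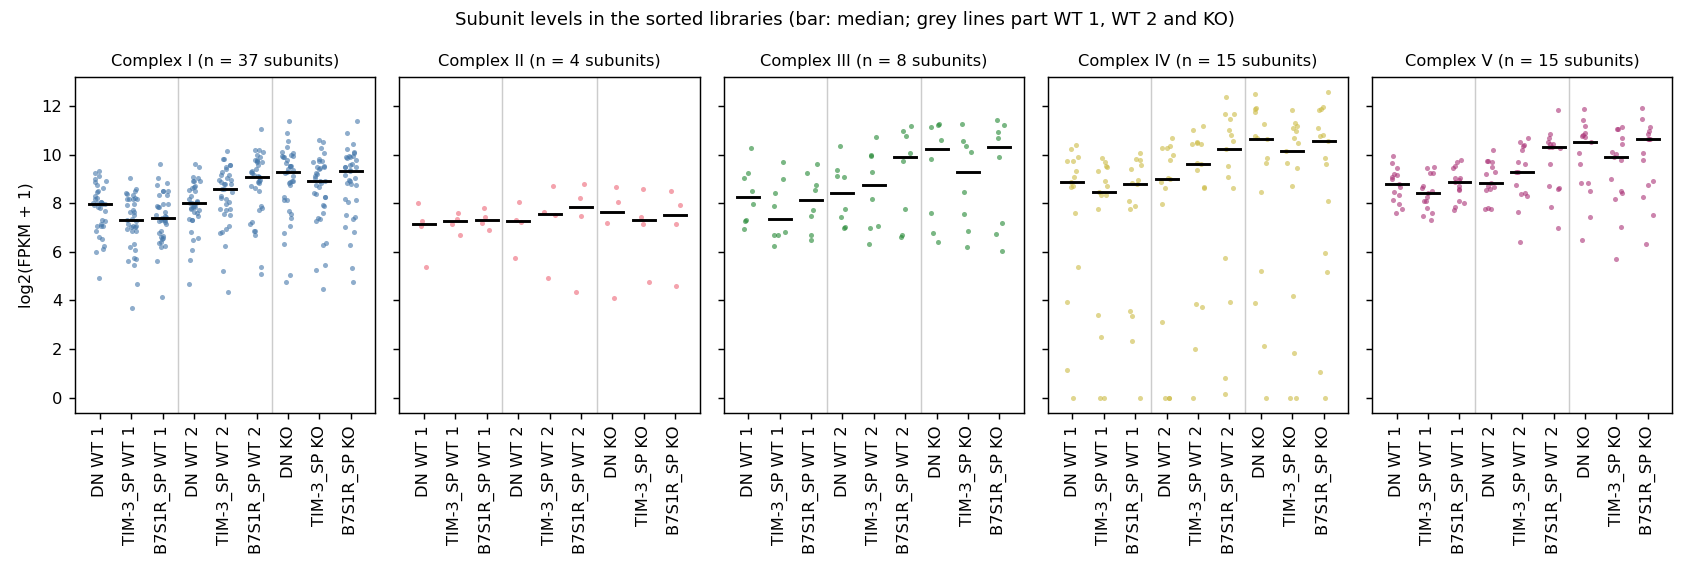
Each point is 1 subunit and its height is log2(FPKM + 1) in the library named on the x axis, with 1 panel per complex and bars at the medians. Complexes I, III, IV and V stand higher in B7S1R_SP of WT 2 and in the KO libraries than in DN of WT 2, while complex II differs less, and the low points of complex IV are tissue-restricted isoforms.

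Cox8a, a small structural subunit of complex IV, was the most abundant subunit in all 9 sorted libraries. It stood at 1068, 931 and 1367 FPKM in B7S1R_SP, TIM-3_SP and DN of WT 1, at 5358, 2311 and 1637 FPKM in WT 2, and at 6102, 3652 and 5785 FPKM in KO. Within WT 2 it was highest in B7S1R_SP, and among the KO libraries B7S1R_SP and DN lay close together. The long subunits Atp5a1 and Atp5b of complex V were ordered otherwise. Atp5a1, the alpha subunit, stood at 255, 224 and 194 FPKM in WT 1, at 127, 84.7 and 219 FPKM in WT 2 and at 80.1, 51.7 and 88.0 FPKM in KO. Atp5b stood at 846, 419 and 325 FPKM, at 230.3, 201 and 420.2 FPKM, and at 182, 131 and 174 FPKM. For both genes each KO library lay below the WT 2 library of its population.

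The first question was whether the receptor-positive and Tim-3-positive populations differ in this machinery. In the fit over all sets, B7S1R_SP stood above TIM-3_SP for 70 of 87 members tested, and complex V was higher for all 15 of its subunits. By set, complex V was higher for 14, 13 and 15 subunits in WT 1, WT 2 and KO, and for 12 in all 3. No single member passed the test. The comparison used limma on log2(FPKM + 1) over the 9 sorted libraries, with the table and the genotype label as terms and Benjamini-Hochberg adjustment over the 10178 genes whose mean reached 1 FPKM. At an adjusted p under 0.05, 0 of 87 members were called by limma, where 0.413% of all genes were, and 7 members had an unadjusted p under 0.05, where 14.9% of all genes had one. The median member difference was 0.36 on the log2 scale against 0.18 for all genes. It was 0.21 in WT 1, 0.49 in WT 2 and 0.32 between the KO libraries. Without B7S1R_SP of WT 2 it was 0.15, below the 0.25 of all genes, and with the trend of each library with transcript length removed, an alternative added after seeing the data, it was 0.22 against 0.002. Within each of these 3 sets 47 members were higher in B7S1R_SP, where 24.7% of all genes were, and 5 were lower in each, where 13.9% were.

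By complex, the medians of subunit differences were 0.38 for complex I (31 of 37 higher), 0.04 for complex II (3 of 4 higher; -0.07 with upper-quartile scaling), 0.18 for complex III (6 of 8), 0.42 for complex IV (12 of 14) and 0.42 for complex V (15 of 15). Without B7S1R_SP of WT 2 the medians were 0.13, 0.08, 0.32, 0.11 and 0.30 for complexes I to V, and that of complex III was 0.05 without TIM-3_SP of WT 1 and 0.39 without TIM-3_SP KO. In complex V the values ran from 0.04 to 0.83, with Atp5g2, a proton-channel c subunit, at the top (0.83 ± 0.43 SE). Its level was 526, 273 and 583 FPKM in B7S1R_SP, TIM-3_SP and DN of WT 1, 1234, 618 and 634 FPKM in WT 2, and 1605, 1102 and 1473 FPKM in KO. B7S1R_SP was above TIM-3_SP in all 3 sets. Atp5g1, Atp5g2 and Atp5g3 encode the same mature c subunit and share sequence, so how reads were split between them is uncertain. The other panel members of complex V were Atp5g1 (0.74 ± 0.50), Atp5g3 (0.41 ± 0.42), Atp5k (0.58 ± 0.48), Atp5a1 (0.46 ± 0.45) and Atp5b (0.56 ± 0.50). In complex IV, Cox8a differed by 0.72 ± 0.49 and Cox6c by 0.86 ± 0.44, while Cox4i1 (0.11 ± 0.44) and Cox5a (0.04 ± 0.45), which touch the catalytic core, lay near 0.

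In complex I, Ndufv1, the flavoprotein that accepts electrons from NADH, had the largest difference, 1.06 ± 0.43 (adjusted p = 0.301, limma). It stood at 84.4, 24.6 and 62.9 FPKM in WT 1, at 102, 75.9 and 113 FPKM in WT 2 and at 76.4, 37.1 and 79.1 FPKM in KO, so that TIM-3_SP was the lowest of the 3 populations in every set. Ndufs1, the large iron-sulphur subunit of the same electron entry module, differed by 0.49 ± 0.43. Ndufa9 and Ndufb8, of the membrane-facing and membrane parts, differed by 0.33 ± 0.41 and 0.44 ± 0.44. Ndufa13 had the lowest value of the complex, -0.41 ± 0.44. Ndufa4 differed by 0.98 ± 0.45.

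In complex III, the small subunits Uqcr11 and Uqcrq had the largest differences, 1.36 ± 0.49 (adjusted p = 0.251, limma) and 1.28 ± 0.54 (adjusted p = 0.317, limma). Uqcr11 stood at 436, 236 and 361 FPKM in WT 1, at 2361, 634 and 561 FPKM in WT 2 and at 2753, 1109 and 2486 FPKM in KO. B7S1R_SP had the highest value in each set, with DN near it in KO. The Rieske iron-sulphur protein Uqcrfs1 (0.02 ± 0.45), the core protein Uqcrc1 (0.18 ± 0.46) and Uqcrh, the hinge protein (-0.13 ± 0.42), lay near 0. In complex II, Sdha, the flavoprotein that oxidises succinate, differed by -0.32 ± 0.59, Sdhb by 0.05 ± 0.43, Sdhc by 0.02 ± 0.39 and Sdhd by 0.51 ± 0.43.

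**Figure D2:**
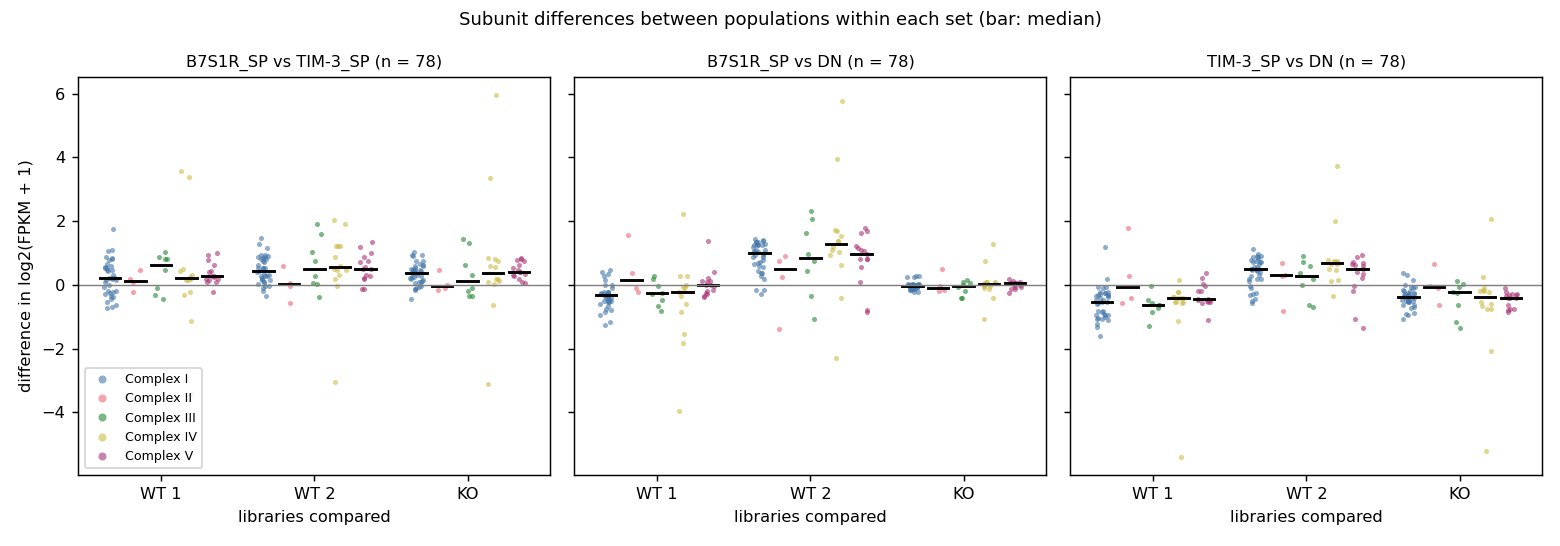
Each point is 1 of 78 subunits and its height is the difference in log2(FPKM + 1) between the populations in the panel title, within WT 1, WT 2 or KO, with bars at the medians of each complex. The left panel has medians above 0 in most complexes of each set, while the other panels change sign between sets, at 0.49 for TIM-3_SP against DN in WT 2 and -0.48 in WT 1.

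The widest differences between these populations were those of isoforms that are otherwise restricted to other tissues. Cox6b2, known as the testis isoform of subunit 6B, lies at chr7:4751792-4753094 (GRCm38, GENCODE M21, 4 exons). It was listed at 0, 9.65 and 14.5 FPKM in B7S1R_SP, TIM-3_SP and DN of WT 1, at 0.76, 13.4 and 7.58 FPKM in WT 2, and at 1.09, 17.1 and 3.36 FPKM in KO. B7S1R_SP was the lowest population in every set. The difference from TIM-3_SP was -3.19 ± 0.59 on the log2(FPKM + 1) scale with an adjusted p of 0.069 by limma, and the 3 sets gave -3.41, -3.03 and -3.12. With upper-quartile scaling the adjusted p was 0.0331 and without DN WT 1 it was 0.0496, both by limma, while the other 20 of 22 alternatives did not pass and the range over all was 0.0331 to 0.745. Its widely expressed partner Cox6b1 stood at 901, 720.2 and 953 FPKM in WT 1, far above Cox6b2, and differed by 0.45 ± 0.45.

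Cox7a1, the heart and muscle isoform of subunit 7A, lies at chr7:30184144-30186078 (4 exons). It stood at 9.37, 0 and 1.21 FPKM in WT 1, at 14.4, 3.05 and 0 FPKM in WT 2 and at 34.99, 2.54 and 13.9 FPKM in KO, and B7S1R_SP was highest in each set. Its difference from TIM-3_SP was 2.88 ± 0.71 (adjusted p = 0.131, limma), and that of Cox7a2, the liver-type partner, was 0.38 ± 0.46. Cox6a2, the muscle isoform of subunit 6A at chr7:128205435-128206387 (3 exons), stood at 10.9, 0 and 40.8 FPKM in WT 1, at 53.1, 12.2 and 0 FPKM in WT 2 and at 60.7, 0 and 35.6 FPKM in KO. It was above TIM-3_SP in each B7S1R_SP library, by 3.85 ± 1.56 (adjusted p = 0.301, limma), but had no set order with DN. Cox4i2 was listed only in the WT 2 and KO table, at 2.37 FPKM in B7S1R_SP of WT 2, 0.54 FPKM in B7S1R_SP KO and 0 in the other 4 libraries.

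**Figure D3:**
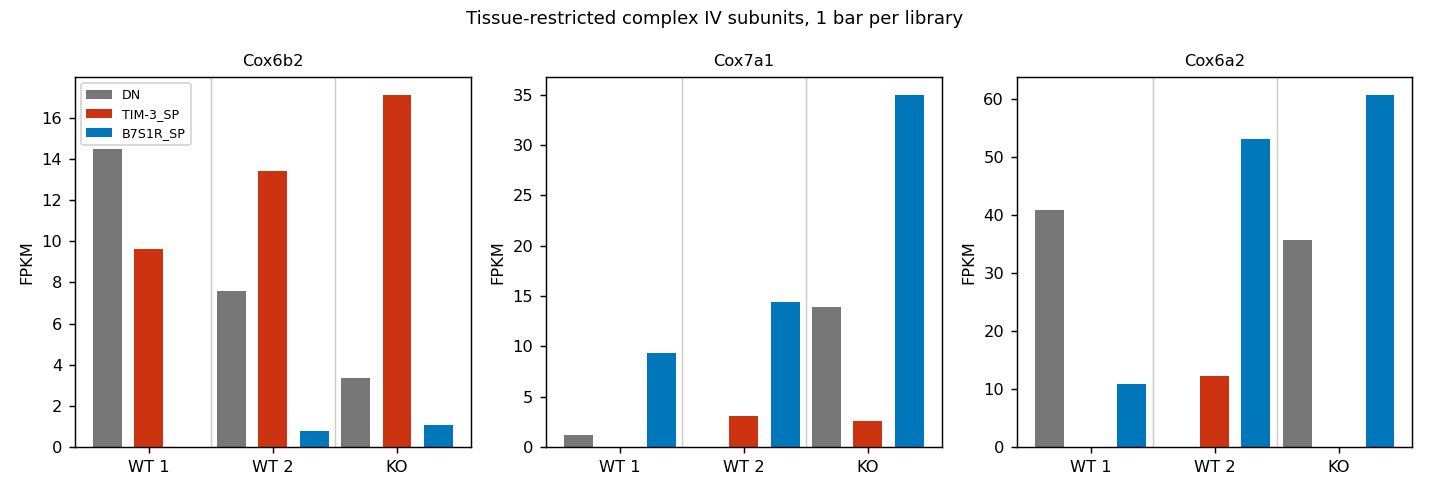
Bars give the FPKM of Cox6b2, Cox7a1 and Cox6a2 in each sorted library, 1 library per bar and so without error bars, grouped by set and coloured by population. Cox6b2 is at 1.09 FPKM or lower in the 3 B7S1R_SP libraries, and Cox7a1 is highest there in each set.

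Markers of other cells moved with this comparison. All 14 tested of 20 myeloid markers were higher in B7S1R_SP than in TIM-3_SP, with a median difference of 3.64. Their sum was 2440, 832 and 8807 FPKM in B7S1R_SP of WT 1, WT 2 and KO, against 168, 207 and 290 FPKM in TIM-3_SP, and none of those listed was at 0 in B7S1R_SP of WT 1 or KO. All 9 tested T cell and CD8 markers were lower, with a median of -1.42. The part of these cells in the subunit differences was not tested. In the same comparison 75 of 86 cytosolic ribosomal protein genes were higher, with a median of 0.37, and 60 of 77 mitochondrial ones, with a median of 0.39. Of 18 citric acid cycle genes 15 were higher, with a median of 0.53.

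TIM-3_SP against DN gave no common direction. Limma called 0 of 87 members, where 0.059% of all genes were called, and 3 members had an unadjusted p under 0.05, where 9.06% of all genes had one. The median was -0.15 against -0.14 for all genes, with 26 members higher and 61 lower. It was -0.48 in WT 1, 0.46 in WT 2 and -0.31 in KO, so that WT 2 went against the other sets. No member was higher in all 3 sets, where 8.61% of all genes were, and 14 were lower in all 3, where 19.7% were. Those with an unadjusted p under 0.05 were Ndufv1 (-0.99 ± 0.43, adjusted p = 0.544, limma) and the complex I assembly factors Ndufaf5 (-0.98 ± 0.42) and Ndufaf6 (-0.999 ± 0.44). Ndufaf6 stood at 13.0 FPKM in TIM-3_SP and 24.2 in DN of WT 1, at 7.23 and 17.3 in WT 2 and at 18.5 and 37.9 in KO, lower in TIM-3_SP each time. The panel of named subunits ran from -0.99 (Ndufv1) to 0.54 (Sdha) outside the restricted isoforms. Without DN of WT 2 the median was -0.46, without DN of WT 1 0.07, without DN KO -0.01, without TIM-3_SP KO -0.08 and without TIM-3_SP of WT 2 -0.24, and with upper-quartile scaling, which moved the median of all genes to -0.01, it was 0.02.

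B7S1R_SP against DN also depended on the set. Limma called 0 of 87 members, where 0% of all genes were called, and 3 had an unadjusted p under 0.05, where 6.66% of all genes had one. The median was 0.19 against 0.01 for all genes, and 66 members were higher, but it was -0.26 in WT 1, 0.93 in WT 2 and -0.02 in KO. Higher in all 3 sets were 9 members, where 15.8% of all genes were, and lower in all 3 were 8, where 14% were. Without DN of WT 2 the median was -0.07, without B7S1R_SP of WT 2 0.04, and without DN and B7S1R_SP of WT 1 in turn 0.41 and 0.35. All 14 tested myeloid markers were higher in B7S1R_SP than in DN, with a median of 2.68, and all 9 T cell and CD8 markers lower, with a median of -1.11. Cox6b2 (-2.43 ± 0.59, adjusted p = 0.640, limma) and Cox7a1 (2.48 ± 0.71, adjusted p = 0.714, limma) kept one direction in the 3 sets. Cox6a2 differed by 1.56 ± 1.56, Uqcrq by 0.86 ± 0.54, Uqcr11 by 0.83 ± 0.49 and Cox7a2l by -0.77 ± 0.44. The remaining panel subunits ran from -0.46 (Uqcrc1) to 0.61 (Atp5k). Between the KO libraries of B7S1R_SP and DN the subunits were nearly the same, with a median absolute log2 difference of 0.08 over 80 subunits against 0.34 over 10096 genes of that table.

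The second question was how the sorted populations differ between the genotype labels, read between the libraries labelled KO and the WT 2 libraries of one table. Complexes I, III, IV and V were higher in the libraries labelled KO for most subunits, complex II was near 0, and no member passed the test. Limma called 0 of 87 members, where 0.00983% of all genes were called, and 4 had an unadjusted p under 0.05, where 6.58% of all genes had one. The median was 0.51 against -0.15 for all genes, with 67 members higher and 20 lower. It was 0.18 in B7S1R_SP, 0.31 in TIM-3_SP and 1.07 in DN. Higher in KO in all 3 populations were 50 members, where 13.8% of all genes were, and lower in all 3 were 9, where 23.4% were. A test of whether the genotype difference varied between populations called 0 of 87 members by limma, with 0% of all genes called, and 0 members had an unadjusted p under 0.05, where 0.943% of all genes had one. That test had only 2 residual degrees of freedom. Scaling moved the sizes: with upper-quartile scaling the median was 0.86 for members and 0.12 for all genes, and with quantile normalization 0.34 and -0.01. Without DN of WT 2 the member median was 0.22 and without B7S1R_SP of WT 2 it was 0.78.

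The median subunit difference was 0.52 in complex I (30 of 37 higher), -0.09 in complex II (2 of 4; 0.28 with upper-quartile scaling), 0.66 in complex III (6 of 8), 0.78 in complex IV (12 of 14) and 0.52 in complex V (12 of 15). Without DN of WT 2 these medians were 0.19, -0.26, 0.28, 0.37 and 0.23 for complexes I to V. The members with an unadjusted p under 0.05 were Cox7b (1.03 ± 0.42), Ndufa4 (1.04 ± 0.45), Atp5l, a subunit of the membrane part of complex V (1.03 ± 0.44), and Cox7a1 (1.64 ± 0.71), each with an adjusted p of 0.755 by limma. Cox7b, a small complex IV subunit, stood at 542, 396 and 250.7 FPKM in B7S1R_SP, TIM-3_SP and DN of WT 2 and at 793, 701 and 821 FPKM in KO. The 3 KO values lay above the 3 wild-type values. Ndufa4 stood at 2114, 759.8 and 779 FPKM in WT 2 and at 2732, 1471 and 2712 FPKM in KO, where the TIM-3_SP KO value was below B7S1R_SP of WT 2.

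In the other direction, Atp5a1 differed by -0.89 ± 0.45 (adjusted p = 0.766, limma) and Atp5b by -0.74 ± 0.50, while the short subunits of the same enzyme Atp5k (0.90 ± 0.48), Atp5g1 (0.97 ± 0.50) and Atp5g2 (0.81 ± 0.43) were higher. Within complex II, Sdha stood at 19.6, 29.5 and 52.8 FPKM in WT 2 and at 23.4, 26.0 and 16.1 FPKM in KO, and Sdhb at 446, 426 and 265 FPKM against 360.4, 387 and 411 FPKM. Both differed in opposite directions between B7S1R_SP and DN. The widely expressed panel subunits of complex IV were Cox8a (0.89 ± 0.49), Cox7a2 (0.98 ± 0.46), Cox6c (0.73 ± 0.44), Cox5a (0.61 ± 0.45) and Cox4i1 (0.15 ± 0.44). Of the restricted isoforms, Cox6a2 differed by 0.56 ± 1.56 and Cox6b2 by -0.13 ± 0.59, and Cox7a2l had the lowest value of the complex, -0.35 ± 0.44. In complex I, Ndufb8 differed by 0.69 ± 0.44, Ndufs1 and Ndufa9 by -0.04 each, and Ndufv1 by -0.64 ± 0.43. In complex III the core proteins Uqcrc1 (-0.40 ± 0.46) and Uqcrc2 (-0.42 ± 0.40) were lower and Uqcr11 (1.06 ± 0.49) was higher.

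Subunits of one enzyme that differed in opposite directions also differed in transcript length. Median member transcript length was 697.5 bases, against 2156 bases over all listed genes. By complex it was 758, 1186.5, 519.5, 615.5 and 714 bases for complexes I to V, longest in complex II. Subunits were divided at 1000 and 1500 bases, limits chosen after the values were seen. The 57 subunits under 1000 bases had median KO minus WT 2 differences of 0.25 in B7S1R_SP, 0.35 in TIM-3_SP and 1.43 in DN. The 10 of at least 1500 bases had -0.18, -0.15 and -0.58, and the 11 between these limits had -0.31, 0.04 and 0.63. Among 1370 other genes under 1000 bases the medians were 0.02, 0.09 and 0.33, and among 7325 of at least 1500 bases they were 0, -0.06 and -0.54. Spearman's rho between length and difference across the 78 subunits, which share their libraries, was -0.58, -0.50 and -0.64 and is given as a description only.

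**Figure D4:**
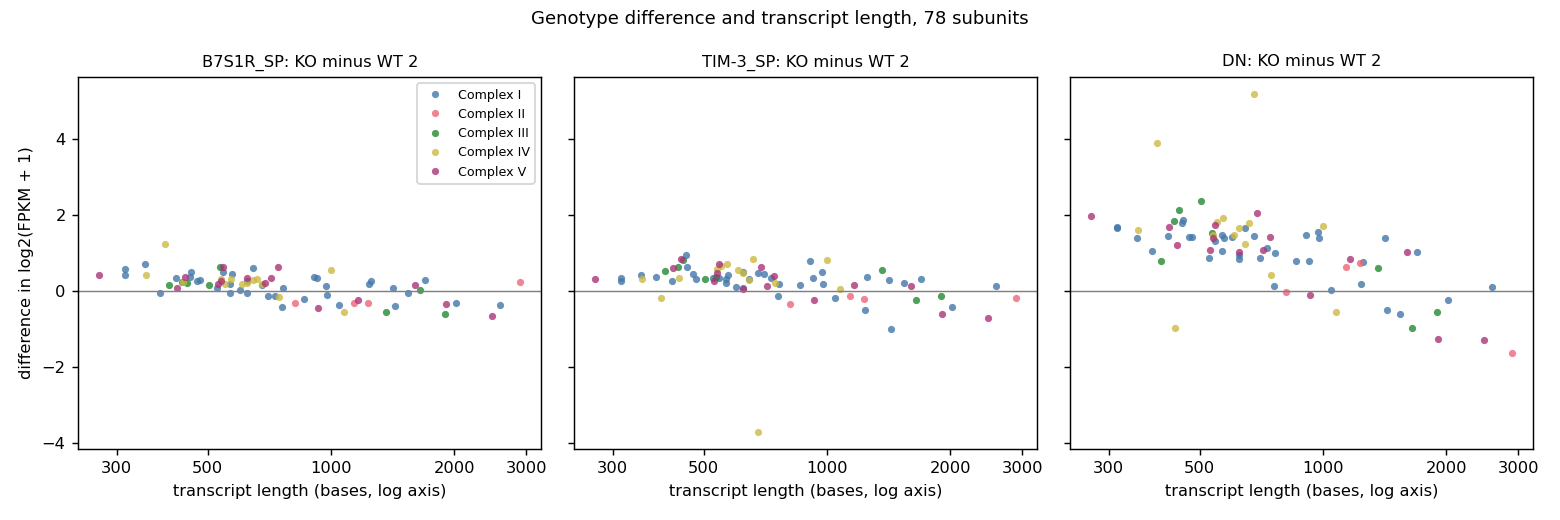
Each point is 1 of 78 subunits, with transcript length in bases on a log x axis and the KO minus WT 2 difference in log2(FPKM + 1) on the y axis, 1 panel per population, coloured by complex. Points under 1000 bases lie mostly above 0 and those of at least 1500 bases mostly below, with medians of 1.43 and -0.58 in DN.

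The same contrast appeared as a ratio of levels within each library. The median FPKM of 55 short subunits was 2.91 times that of the 10 long ones in DN of WT 2, 6.33 in TIM-3_SP and 7.75 in B7S1R_SP of WT 2, and 10.1 to 10.7 in the KO libraries. It was 2.37 to 3.38 in WT 1, 8.64 and 10.3 in the wild-type and KO bulk libraries and 1.598 to 2.71 in the antibody libraries. DN of WT 2 thus stood apart from the 5 other libraries of its table, and the medians without it are given above. After each library's trend with length was removed over 20 length classes, an alternative chosen after seeing the data, the median was 0.34 and 71 of 87 members were higher. Other short transcripts moved as well: 81 of 86 cytosolic ribosomal protein genes were higher in KO, with a median of 0.50, and 52 of 77 mitochondrial ones, with a median of 0.29.

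Citric acid cycle genes lay in the other direction. Of 18 citric acid cycle genes 16 were lower in KO, with a median of -0.32, and limma called none. Their median transcript length was 2240.5 bases, against 691 for the tested members, and the part of length was not tested. Of 37 tested assembly factors 20 were higher, with a median of 0.08, and of 12 regulators of mitochondrial biogenesis 7 were, with a median of 0.08. The erythroid list was high in the WT 2 libraries and low in those labelled KO, as given above. Those of its genes that the wild-type WT 1 libraries listed were low there too. With the erythroid genes left out, an alternative also added after seeing the data, the member median was 0.42. T cell and CD8 markers were lower for all 9 tested genes, with a median of -0.73, and myeloid markers were higher for 10 of 14, with a median of 0.76. The part of red cell, T cell and myeloid content in the subunit differences was not tested, and with 1 KO library per population the genotype and these differences between libraries cannot be told apart.

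In bulk ovalbumin-specific cells, with 1 library per genotype and so no replicate check, the subunits were nearly level. Of 85 members at 5 RPKM or more in the higher library, 3 were at least 2-fold higher on the log2(RPKM + 1) scale in the library labelled KO, where 10.7% of all genes were, and 3 were at least 2-fold lower, where 12.1% were. The median difference was -0.002 against -0.02 for all genes. By complex it was 0.05, 0.09, -0.17, -0.05 and -0.01 for complexes I to V. The 3 subunits past 2-fold were Ndufab1, the acyl carrier protein of complex I (45.5 to 97.4 RPKM from wild type to KO), Cox7a1 (listed at the lowest value of 0.001 in wild type and at 7.60 RPKM in KO) and Cox6a2 (11.7 and 3.79 RPKM). The assembly factor Ndufaf7 was higher (13.3 and 29.3 RPKM), and Ndufaf5 (11.7 and 4.92 RPKM) and Ndufaf6 (8.99 and 1.92 RPKM) were lower. Ndufs1 was listed at 0.001 and 0.528 RPKM, while its module partner Ndufv1 stood at 30.2 and 42.5 RPKM. Atp5a1 (187 and 142 RPKM) and Atp5b (315 and 281 RPKM) were lower, without passing 2-fold.

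In the antibody libraries the members differed by complex: complexes II and III had medians below 0 against Control, complex V above 0, and complex IV between -0.13 and -0.07. None of these comparisons has a replicate check, and the 3 comparisons share the Control library, which stood apart with 5752 genes at 1 FPKM or more against 6913 to 8640 and with Gzmb, the granzyme B of killer cells, at 0.04 FPKM against 257 to 1716 FPKM. In anti_B7S1 against Control 14 of 81 members were at least 2-fold higher, where 37.9% of all genes were, and 18 lower, where 29% were. In anti_PD1 against Control these were 13 and 9 of 81, where 43.8% and 23.8% of all genes were, and in combo against Control 11 and 13 of 81, where 40.1% and 28% were. The member medians were -0.19, 0.03 and -0.04, against 0.20, 0.49 and 0.27 for all genes.

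Complex IV had the fewest subunits past 2-fold in each comparison with Control. Of 11 subunits measured, 1 passed 2-fold in anti_B7S1 (Cox7a2l, at 359 FPKM in Control and 737 FPKM in anti_B7S1) and none in anti_PD1 or combo against Control. Cox8a stood at 931, 797, 739 and 965 FPKM in Control, anti_B7S1, anti_PD1 and combo. Complex III had medians of -0.58, -0.997 and -0.81 against Control in the same order of antibodies. Uqcrc1 stood at 225, 104, 79.3 and 111 FPKM and Uqcr11 at 225, 74.5, 95.9 and 80.5 FPKM, both highest in Control. Complex II had medians of -1.03, -0.33 and -1.51 over its 4 subunits. Its Sdhb, the iron-sulphur subunit, stood at 373, 119, 114 and 134 FPKM, again highest in Control. Sdhd, a membrane anchor, stood at 153, 48.1, 115 and 0.04 FPKM, close to 0 in combo alone. Complex V had medians of 0.19, 0.22 and 0.25, and Atp5k stood at 44.5, 154, 156 and 147 FPKM, lowest in Control.

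In complex I, several core subunits were at or near 0 in Control. Ndufs8 was listed at 0, 68.4, 78.0 and 119.7 FPKM, Ndufv2 was listed at 0, 19.2, 42.7 and 38.0 FPKM, Ndufs1 at 0.02, 51.0, 33.7 and 13.6 FPKM and Ndufv1 at 5.86, 139, 121 and 29.3 FPKM. These are subunits of the arm that takes electrons from NADH, and each was lowest in Control. Ndufs7, which carries the last iron-sulphur centre, was instead at 0 in anti_B7S1 and between 43.2 and 65.3 FPKM in the other libraries. Among assembly factors, Ndufaf2 was at 0 in anti_B7S1 and combo and at 36.2 and 51.7 FPKM in Control and anti_PD1. No fold is given against a value listed at 0. Ndufb2 stood at 179, 17.8, 117 and 16.1 FPKM, low in anti_B7S1 and combo.

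Other members with large values followed no common order of the 4 libraries. Ndufa5, a peripheral-arm subunit, stood at 2.07, 44.0, 98.2 and 143 FPKM in Control, anti_B7S1, anti_PD1 and combo, lowest in Control. Ndufs5 (228, 46.9, 71.9 and 129.8 FPKM) and Ndufc2 (176, 36.6, 111 and 70.6 FPKM) were highest in Control and lowest in anti_B7S1, as was Atp5g3 (250.2, 66.5, 147 and 189 FPKM). In combo the lowest values of the 4 were those of Uqcrb (314, 199, 242 and 60.4 FPKM), Uqcrfs1 (323, 303, 189 and 77.9 FPKM) and Ndufb5 (25.3, 92.9, 38.1 and 10.9 FPKM), while Ndufb6 was highest there (83.2, 64.5, 66.2 and 216 FPKM). Of the assembly factors, Ndufaf3 was listed at 0 in Control and at 43.4, 8.87 and 102 FPKM in the others, Ndufaf6 at 0 in Control and combo and at 24.1 and 15.2 FPKM in the others, and Atp5s at 13.5 FPKM in anti_PD1 and 0 elsewhere.

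Combo was also set against each single antibody. Against anti_PD1, 8 of 83 members were at least 2-fold higher, where 23.6% of all genes were, and 12 lower, where 32.7% were, with a median of -0.04 against -0.15 for all genes. Against anti_B7S1, 21 of 82 were higher, where 33.3% of all genes were, and 13 lower, where 30.8% were, with a median of 0.17 against 0.06. Complex IV had 0 of 11 subunits past 2-fold against anti_PD1 and 2 lower against anti_B7S1, Cox6c (570.1 FPKM in anti_B7S1 and 271 FPKM in combo) and Cox7a2l (737 and 289 FPKM). These pairs share the combo library, so their values stand side by side only.

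**Figure D5:**
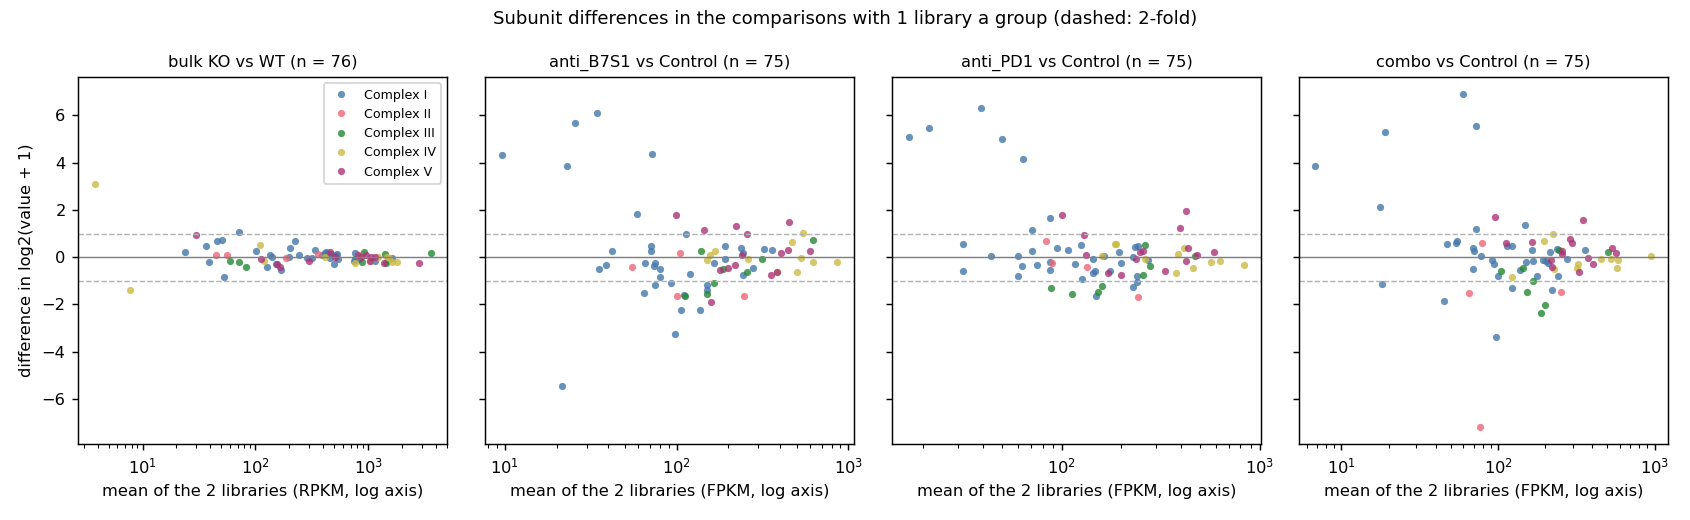
Each point is 1 subunit, with the mean of the 2 libraries on a log x axis (RPKM in the first panel, FPKM in the others) and the difference in log2(value + 1) on the y axis, with dashed lines at 2-fold. The bulk pair holds 3 points past the lines, and the antibody panels spread more widely, with complex I points at the top and complex IV points between the lines but for 1.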

How the data were processed

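RNA of CD8+ T cells was made into libraries with the SMARTer ultra low input kit, per the labels' protocols. The authors deposited RPKM for the bulk pair (lowest value 0.001) and FPKM for the other 13 libraries, per the file headers. HISAT2, Bowtie2, RSEM and mm10 are named without versions in the submitters' processing notes. Filters, annotation and total reads are not given in the sources used here, so the precision of single values is unknown and no count model was run.

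Members and gene lists were chosen with earlier results of these data known. Repeated symbols were dropped. Sorted libraries were fitted with limma 3.58.1 in R 4.3.3 on log2(FPKM + 1), over 10178 genes, with 4 residual degrees of freedom. Named members are a panel of core and tissue-restricted subunits, the largest difference each way in a complex, members past the threshold (up to 6 each way) and members at 0 in some libraries; values of less extreme ones are given as ranges. One result under this rule is not reported here. Same-numbered wild-type libraries deviated together, with correlations of 0.401, 0.269 and 0.193 over 10411 genes, so the replicate number, equal to the table, is a block in the fit. Unreplicated libraries were compared as log2 differences, with a minimum of 5 in the higher library. Transcript lengths are medians of basic protein-coding transcripts in GENCODE M21, which matched all 90 members. Alternatives changed the pseudocount, filter, scaling, block and libraries. The fits were run on simulated data with noise drawn independently for each gene and library, which does not test noise shared by many genes.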

Additional observations from a re-analysis of the deposited data

Results flagged for a closer look

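The median log2 difference of the complex II subunits between the library labelled KO and WT 2 was -0.31 in B7S1R_SP, -0.20 in TIM-3_SP and 0.30 in DN. Higher in KO were 1, 0 and 2 of the 4 subunits in the same order. The DN value rests on DN of WT 2, which stood apart in its ratio of short to long subunits. The medians had opposite signs and this difference between populations was not tested over the complex. By gene, the interaction test called none of its 4 subunits. Complex II also had the longest median transcript of the complexes, and the part of length in these differences was not tested.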

How the results depend on the processing

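In the 4 sorted comparisons and the interaction, 1 member was called under 2 alternatives and none under the others. It was Cox6b2, lower in B7S1R_SP against TIM-3_SP, with upper-quartile scaling and without DN WT 1. Leaving out 1 library in turn gave 0 to 1 members called there, the 1 without DN WT 1. Member medians over these left-out libraries ran from -0.46 to 0.07 for TIM-3_SP against DN, 0.15 to 0.47 for B7S1R_SP against TIM-3_SP, -0.07 to 0.41 for B7S1R_SP against DN and 0.22 to 0.78 for KO against WT. Without the replicate block the KO against WT median was 0.92, since libraries of different tables then entered the contrast, and the block changed no member call. For members past 2-fold, the bulk pair had 3 with a pseudocount of 5 and 12 at 1.5-fold, against 6; at 1.5-fold anti_PD1 against Control had 34, combo against Control 39 and combo against anti_PD1 35.

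Single genes reversed as follows, and the cause was not tested. With each library left out in turn, TIM-3_SP against DN ran from -0.10 to 1.29 for Sdha, -0.16 to 0.43 for Uqcrb and -0.095 to 0.39 for Atp5j, and B7S1R_SP against TIM-3_SP from -0.67 to 0.15 for Sdha. B7S1R_SP against DN ran from -0.52 to 0.10 for Ndufa13, -0.42 to 0.97 for Sdha and -0.53 to 0.16 for Atp5a1, and KO against WT from -0.99 to 0.21 for Sdha and -0.25 to 0.23 for Sdhb. In the table of 6 libraries alone, TIM-3_SP against DN gave -0.080 for Sdha, and B7S1R_SP against DN gave 0.11 for Ndufa13 and -0.44 for Sdha. For KO against WT, Sdhb was -0.079 with quantile normalization and -0.025 without erythroid genes, Uqcrc2 0.030 with the length trend removed and Cox7a2l 0.015 with upper-quartile scaling. Unknown depth limits the low isoforms most.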
